A study of Mus musculus with 2 samples.

Results

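The genes of calcineurin and NFAT form the pathway that voclosporin, cyclosporine and tacrolimus block, and 10 of them were taken by symbol from a table of 20002 genes measured by RNA-seq in mouse kidney. The 10 were the catalytic subunits Ppp3ca, Ppp3cb and Ppp3cc, the regulatory subunit Ppp3r1, the transcription factors Nfatc1, Nfatc2, Nfatc3 and Nfatc4, and the calcineurin regulators Rcan1 and Rcan2. All 10 were in the table, and 10 passed a minimum of 10 reads in at least 1 library, so no gene was lost to the filter on low values.

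Calcineurin is a protein phosphatase that calcium and calmodulin switch on. It removes phosphates from the NFAT factors, which then enter the nucleus and, often beside AP-1 proteins, turn on genes of immune activation, vessel growth and muscle and bone remodelling. Drugs of this class reach calcineurin only after binding a small partner protein, an immunophilin, and they are known both for suppressing T cells and for harming the kidney. Rcan proteins bind calcineurin and restrain it, and a short form of Rcan1 is itself transcribed through NFAT, which makes it a feedback inhibitor of the pathway.

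Whole kidneys gave 2 libraries, 1 of the control and 1 of the Reg-2 CKO group. The labels name neither voclosporin nor any other treatment. The CKO label names a proximal tubule-specific knockout of Regnase-2, an RNase that degrades certain mRNAs. By the study's methods it was a knockdown in C57BL/6J mice, made by tail vein injection of AAV9 carrying shRNA against Regnase-2 at 11 weeks of age. The methods describe AAV9 as reaching mainly the proximal tubule, where the knockdown was checked by immunofluorescence. The control is given as control shRNA in one part of the methods and as an empty vector in another, and the age at collection as 14 or 16 weeks. RNA came from the left kidney. The sex of the mice and whether a library held 1 mouse or a pool were not given in the sources used here.

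After removal of a constant from each column the libraries held 38851231 reads (control) and 43588721 reads (CKO). Before any ratio was taken, the CKO library was scaled by 0.667, which is the control value over the CKO value for the median gene. With 1 library in each group no difference has a replicate check, and every interval given here is a 95% Clopper-Pearson or Poisson interval for counting error alone, between these libraries and not between the conditions.

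Zc3h12b, the gene of Regnase-2, had 47 control reads and 59 CKO reads. After scaling this was 0.837-fold, with an interval of 0.561 to 1.26. By counting error alone, this interval includes no change and stops short of 2-fold lower under this scaling. A smaller difference in the targeted mRNA could not be told from none at this depth. The log2 ratio of -0.25 became 0.16 with equal library totals. Markers of the labelled tissue were abundant. Slc34a1, the phosphate transporter of the proximal tubule, had 147064 control reads and 98124 CKO reads, and Umod, the uromodulin of the thick ascending limb, had 90047 and 187056.

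The comparison asks how the mRNAs of the drug's target pathway stood in the CKO library beside the control. Ppp3ca, Ppp3cb and Ppp3r1 of the enzyme lay within 1.5-fold of no change under this scaling. So did Ppp3cc, which had the lowest ratio of the 10 at 0.741-fold. Rcan1, Rcan2 and the scarcer NFAT factors were higher in the CKO library. Only Rcan2 was at least 2-fold higher, 1 gene of 10, where 13.4% of the 17469 genes past the filter were at least 2-fold higher. None of the 10 was at least 2-fold lower, against 5.35% of all genes. At 2-fold the share among the 10 was thus close to that among all genes. At 1.5-fold, 4 of 10 were higher (Rcan1, Rcan2, Nfatc2 and Nfatc4), against 21.8% of all genes, and 0 were lower, against 13.9%. The median log2 ratio of the 10 was 0.24, with 6 above 0 and 4 below, and that of all genes past the filter was 0.022, with 51.5% above 0.

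The scaling matters to these directions. With the library totals made equal, the median over all genes was a log2 ratio of 0.44, and 3870 genes were at least 2-fold higher and 437 lower, in place of 2334 and 934. With equal totals 4 of the 10 genes were at least 2-fold higher, against 21.9% of all genes, and 9 of the 10 lay above 0. The ratio of 1 calcineurin gene to another within a library does not depend on the scaling.

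**Figure D1:**
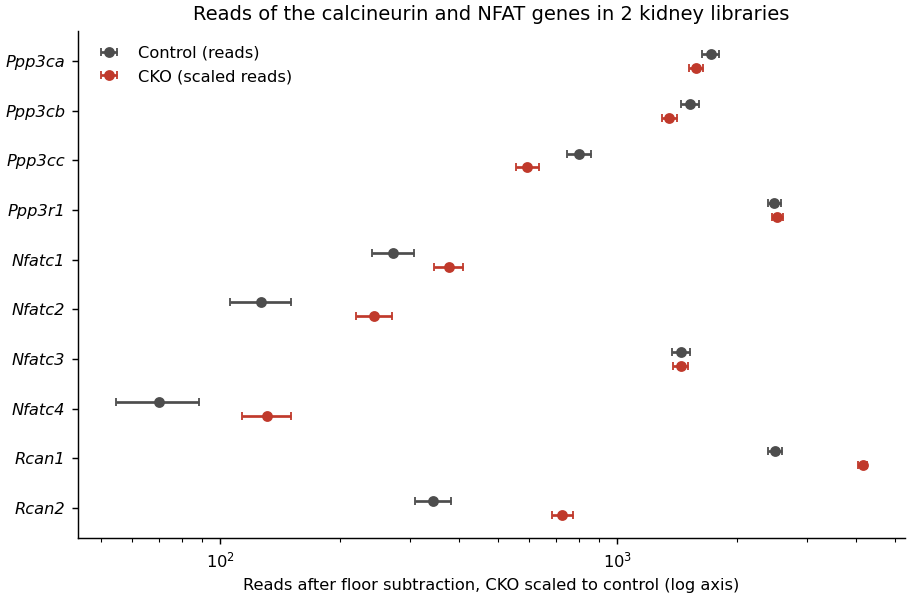
Reads of each of the 10 genes in the control library (grey) and the CKO library (red, scaled) on a log axis, with bars for the 95% Poisson interval of counting error. The intervals of Rcan1, Rcan2, Nfatc1, Nfatc2 and Nfatc4 lie apart with CKO higher, those of Ppp3ca, Ppp3r1 and Nfatc3 overlap (the interval of the Ppp3ca ratio itself is 0.862 to 0.977), and Ppp3cb and Ppp3cc are lower in CKO under this scaling, with log2 ratios of -0.17 and -0.43 against 0.25 and -0.01 with equal totals.

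The catalytic subunits carry the phosphatase site and the surface that drug and immunophilin cover. Ppp3ca, the form best known from brain and most other tissues, had 1718 control reads and 2365 CKO reads, which is 1577 after scaling. The fold was 0.918, with an interval of 0.862 to 0.977. Ppp3ca therefore lay slightly lower, beyond counting error, under this scaling and higher, at a log2 ratio of 0.29, with equal totals. Ppp3cb, the second widely expressed form, had 1524 and 2028 reads, a fold of 0.887 (interval 0.830 to 0.949) that likewise turned to a log2 ratio of 0.25 with equal totals.

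Ppp3cc, best known from testis, had 802 control reads and 891 CKO reads. At 0.741-fold (interval 0.672 to 0.816) it was the lowest of the 10 genes, and its log2 ratio of -0.43 moved to -0.01 with equal totals and to 0.17 with the values as deposited. Its place below its relatives does not rest on the scaling. Among the reads of the 3 catalytic genes, Ppp3cc held 19.8% in the control (Clopper-Pearson interval 18.6% to 21.1%) and 16.9% in the CKO library (15.9% to 17.9%). Ppp3ca held 42.5% and 44.8%, and Ppp3cb 37.7% and 38.4%, with intervals that overlap between the libraries for each of these genes.

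Ppp3r1 encodes the calcium-binding subunit without which the catalytic chain is inactive. It had 2488 control reads and 3789 CKO reads, and these were equal within counting error after scaling, at 1.02-fold with an interval of 0.965 to 1.07. With equal totals its log2 ratio was 0.44, as was the median of all genes, since the factor moves both by about the same amount. In the annotation Ppp3r1 shares 462 of its 3228 exon bases with Wdr92 on the same strand, so that some of its reads are uncertain. For Ppp3cc and Nfatc3 the exons shared with genes of the opposite strand were 3.05% and 1.87% of their exon bases, and the sources used here do not say whether the counting used strand.

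Of the NFAT factors, the most abundant differed from the scarcer ones. Nfatc3, a calcineurin-responsive factor that T cells and many other tissues express, had 1449 control reads and 2168 CKO reads. The fold was 0.997, with an interval of 0.933 to 1.07, and the log2 ratio went from -0.0037 to 0.42 with equal totals, where the median of all genes was 0.44. Its ratio thus lay near that of the typical gene. A change of factor moves both by about the same amount, so the second scaling is no further check.

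Nfatc1, known for osteoclast formation and heart valve development, lies on chromosome 18 of GRCm38 from 80606205 to 80713071. It had 273 control reads and 564 CKO reads, a fold of 1.38 with an interval of 1.19 to 1.60. Nfatc2, the factor first purified from T cells, lies on chromosome 2 from 168476410 to 168601657 and had 127 and 367 reads. Its fold was 1.93 with an interval of 1.57 to 2.38, just short of 2-fold, and 2-fold lies within its interval. Nfatc4, best known from neurons and heart muscle, had 70 and 197 reads and was 1.88-fold higher (interval 1.42 to 2.50). Nfatc1, Nfatc2 and Nfatc4 were higher in the CKO library under each scaling tried, though none of these lowered the CKO values by much. With equal totals Nfatc2 and Nfatc4 passed 2-fold, at log2 ratios of 1.36 and 1.31.

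The make-up of the NFAT reads, which involves no scaling, differed between the libraries. Nfatc3 held 75.5% of the reads of the 4 NFAT genes in the control (interval 73.5% to 77.4%) and 65.8% in the CKO library (64.1% to 67.4%). The share of Nfatc2 was 6.62% in the control (5.55% to 7.82%) and 11.1% in the CKO library (10.1% to 12.3%). For Nfatc4 it was 3.65% (2.85% to 4.59%) and 5.98% (5.19% to 6.84%), and for Nfatc1 14.2% and 17.1%, where the intervals touch. Nfatc3 remained the main mRNA of these 4 genes in both libraries, and the others held more of the sum in the CKO library.

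**Figure D2:**
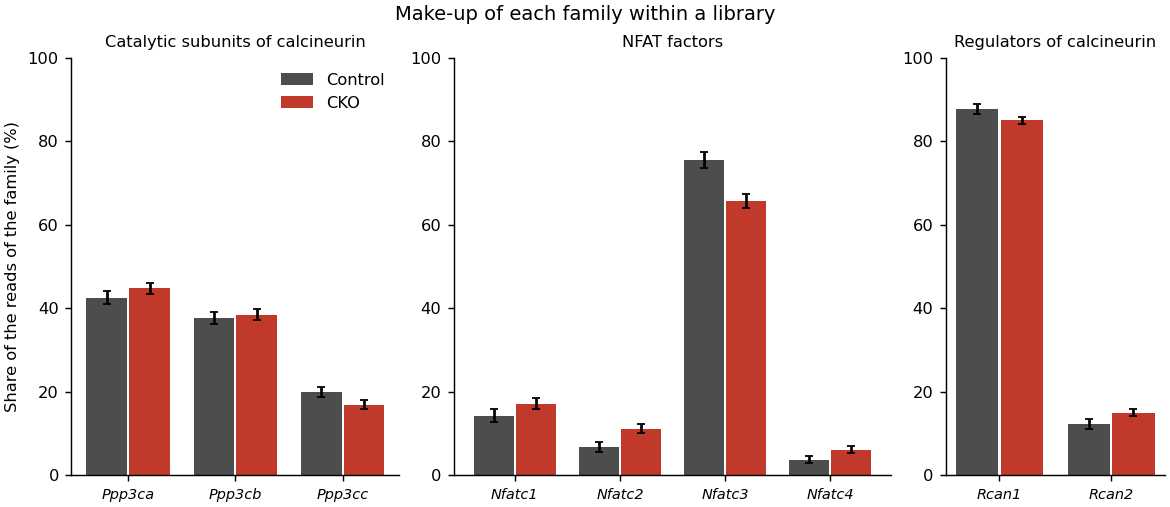
Share of each family's reads, in percent, held by each gene in the control library (grey) and the CKO library (red), with bars from 0 and 95% Clopper-Pearson intervals. In the control and the CKO library Nfatc3 holds 75.5% and 65.8% of the reads of Nfatc1 to Nfatc4. Ppp3cc holds 19.8% and 16.9% of catalytic reads, and Rcan2 12.1% and 14.9% of the reads of Rcan1 and Rcan2. The relatives Nfat5 and Rcan3 are not included.

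Rcan1 and Rcan2 bind calcineurin through a motif that NFAT also uses. Rcan1 had 2497 control reads and 6227 CKO reads, or 4151 after scaling. The fold was 1.66 with an interval of 1.59 to 1.74, and 18.2% of all genes past the filter had a higher ratio. Rcan2, which is known from brain, heart and muscle and is regulated by thyroid hormone, had 344 and 1091 reads. It was 2.11-fold higher with an interval of 1.87 to 2.39, and 12.3% of all genes had a higher ratio. Rcan2 lay just past the 2-fold line, with the line inside its interval. Both Rcan genes were higher in the CKO library under each scaling tried, though none of these lowered the CKO values by much. With equal totals Rcan1 was also past 2-fold, at a log2 ratio of 1.15.

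Set against the enzyme they restrain, Rcan1 and Rcan2 together stood higher in the CKO library without any scaling between libraries. Their sum leaves out Rcan3, which had 803 control reads and 1214 CKO reads. The control held 2841 reads of Rcan1 and Rcan2 for 4044 reads of the catalytic subunits, a ratio of 0.703 with an interval of 0.669 to 0.737. The CKO library held 7318 for 5284, a ratio of 1.38 with an interval of 1.34 to 1.44. The reads of Nfatc1 to Nfatc4 per catalytic read went from 0.475 (interval 0.449 to 0.501) to 0.624 (0.597 to 0.652). For both ratios the intervals of the libraries lie apart, and these ratios were chosen after the values were seen.

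The bases before the start sites of Rcan1 and Rcan2 are shown because Rcan2 was the one gene past 2-fold and because NFAT is known to act on Rcan1. Windows of 250 bases upstream of RefSeq start sites were available for 7 of the 10 genes, 12 windows in all, and were searched for the core NFAT letters GGAAA on either strand (TTTCC on the other) and for the AP-1 letters TGANTCA, which read the same on both strands. Of 32851 such windows of mouse genes, 55.6% hold the NFAT core and 6.75% the AP-1 letters, so a match by itself is common. Rcan1 has 2 start sites on the minus strand of chromosome 16, where the gene spans 92391951 to 92466169. The upstream one opens the longer transcripts, and the downstream one lies in an intron of these and matches within 1 base the start of an annotated shorter transcript. Rcan2 has 3 start sites on the plus strand of chromosome 17 from 43801352 to 44039516, and the first window is shown. The windows are given 5′ to 3′ on the strand of the gene, GRCm38.p6, with capitals for GGAAA or TTTCC.
Rcan1 upstream start, chr16:92466170-92466419, minus strand: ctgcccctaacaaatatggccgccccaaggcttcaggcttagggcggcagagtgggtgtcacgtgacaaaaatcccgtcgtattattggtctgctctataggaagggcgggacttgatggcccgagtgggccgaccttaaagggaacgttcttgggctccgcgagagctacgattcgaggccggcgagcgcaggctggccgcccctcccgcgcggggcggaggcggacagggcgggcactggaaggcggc
Rcan1 downstream start, chr16:92400079-92400328, minus strand: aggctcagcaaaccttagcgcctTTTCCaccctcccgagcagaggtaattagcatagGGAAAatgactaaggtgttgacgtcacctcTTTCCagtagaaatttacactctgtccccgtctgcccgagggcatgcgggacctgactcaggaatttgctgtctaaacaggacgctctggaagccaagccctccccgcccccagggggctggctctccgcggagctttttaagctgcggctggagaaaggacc
Rcan2 first start, chr17:43801102-43801351, plus strand: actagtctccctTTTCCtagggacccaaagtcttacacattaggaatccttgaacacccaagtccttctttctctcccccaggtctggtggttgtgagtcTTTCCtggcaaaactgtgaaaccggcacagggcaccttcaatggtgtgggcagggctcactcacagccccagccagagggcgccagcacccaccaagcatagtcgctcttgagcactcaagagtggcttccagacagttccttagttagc

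The window of the upstream Rcan1 start holds 0 copies of the NFAT core and 0 of the AP-1 letters. The window of the downstream start holds 3 copies of the core, beginning 227, 193 and 163 bases before the start, and 1 copy of the AP-1 letters at 110 bases. Of all windows, 6.39% hold 3 or more copies of the core. The first Rcan2 window has 2 copies, at 238 and 150 bases, and the other Rcan2 windows have 0, though 1 of them has the AP-1 letters 25 bases before the start. No copy of the core overlaps the AP-1 letters in these windows. The table counts reads per gene, so it does not show which Rcan1 start the reads came from, and a match of letters is a description and no evidence of binding. Among the other windows, 1 of Nfatc2, the single one of Nfatc4 and that of Ppp3cb hold 3 copies each. The other Nfatc2 window and 1 of Nfatc3 hold 1 copy each, and the other Nfatc3 window and that of Ppp3r1 hold 0. In all, 7 of the 12 windows hold the core, beside 55.6% of all windows.

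**Figure D3:**
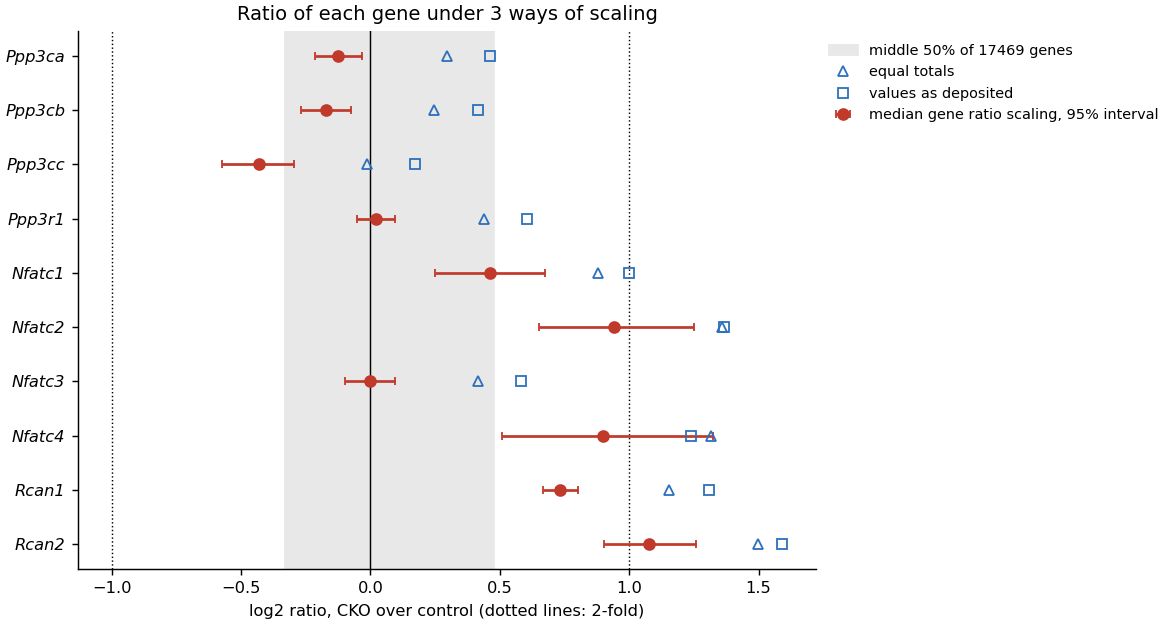
log2 ratio of CKO over control for each of the 10 genes, with the scaling by the median gene ratio (red, 95% Clopper-Pearson interval), with equal library totals (triangles) and with the values as deposited (squares). The grey band holds the middle 50% of 17469 genes and dotted lines mark 2-fold. Rcan1, Rcan2, Nfatc1, Nfatc2 and Nfatc4 are above 0 in all 3 scalings, and Ppp3ca, Ppp3cb and Ppp3cc are below 0 in the first and above 0 with the values as deposited. Equal totals and the values as deposited use a higher CKO factor than the first scaling.

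Levels of different genes were compared per length, as reads per kilobase of the longest annotated transcript per 1000000 reads of the library. In the control, Rcan1 was the most abundant at 27.7 (Poisson interval 26.6 to 28.8), followed by Ppp3r1 at 22.4 (21.5 to 23.3). The catalytic subunits came next, Ppp3cb at 10.2, Ppp3ca at 9.29 and Ppp3cc at 8.28, with ratios between neighbours of 1.10 for Ppp3cb over Ppp3ca (Clopper-Pearson interval 1.03 to 1.18) and 1.12 for Ppp3ca over Ppp3cc (1.03 to 1.22). Nfatc3 followed at 6.23, Rcan2 at 2.67 and Nfatc1 at 1.46. Nfatc2 and Nfatc4 were the lowest, both at 0.48, and could not be ordered, at a ratio interval of 0.743 to 1.36. The other neighbours differed beyond counting error by this length.

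In the CKO library the order kept its ends. Rcan1 was at 61.5 and Ppp3r1 at 30.4 (29.4 to 31.4), while Ppp3cb stood at 12.1 and Ppp3ca at 11.4, with an interval of their ratio that starts at 1.003. Nfatc3 at 8.31, Ppp3cc at 8.20 and Rcan2 at 7.55 followed, and neither step differed beyond counting error, with ratio intervals of 0.938 to 1.10 and 0.992 to 1.19. Nfatc1 was at 2.7, Nfatc2 at 1.23 and Nfatc4 at 1.20, the last pair again without order. Part of the order depends on the length used. With the length of all annotated exons, an alternative chosen after seeing the data, Ppp3cc at 6.92 in the control lay above Ppp3cb at 4.45 and Ppp3ca at 4.43, and in the CKO library Ppp3cc at 6.85 lay above Rcan2 at 5.72, at a ratio interval of 1.09 to 1.31, and Rcan2 could not be ordered against Ppp3ca at 5.44. Rcan1 and Ppp3r1 stayed the highest by this length too, but could not be ordered in the control, at a ratio interval of 0.993 to 1.11.

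**Figure D4:**
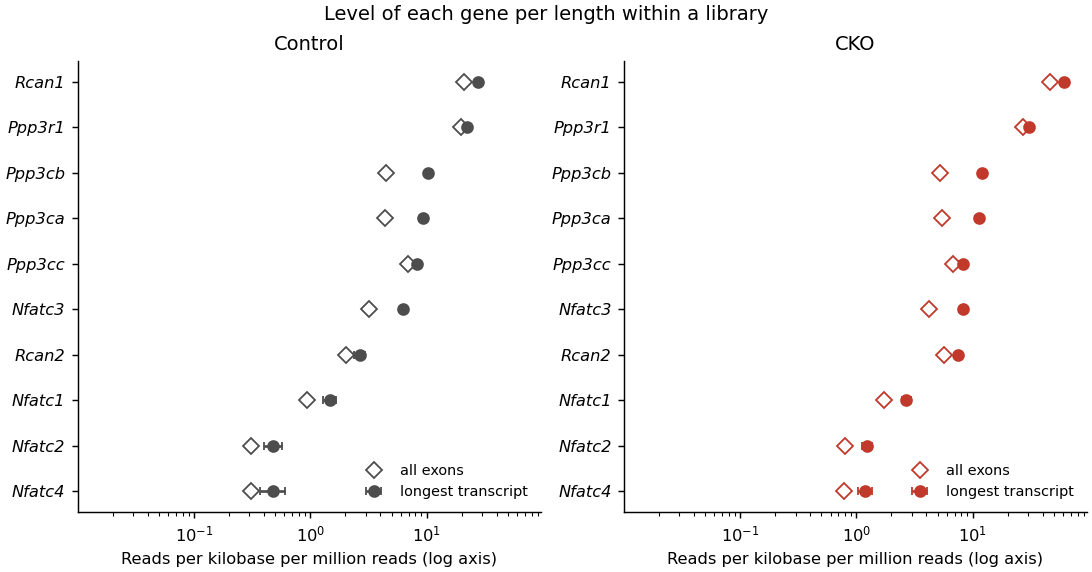
Level of each gene in reads per kilobase per 1000000 reads on a log axis, in the control library (left, grey) and the CKO library (right, red), by the longest transcript (filled, 95% Poisson interval) and by the length of all exons (open). Rcan1 at 27.7 and 61.5 and Ppp3r1 at 22.4 and 30.4 lead both libraries by the longest transcript, and Nfatc2 and Nfatc4 are lowest.

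Of the relatives outside the 10, Nfat5, the NFAT relative that answers to high salt in the kidney medulla and not to calcineurin, had 3513 control reads and 8086 CKO reads, 1.53-fold higher (interval 1.47 to 1.60). Rcan3, the third Rcan gene, had 803 and 1214 reads and a fold of 1.01 (0.921 to 1.10), unlike Rcan1 and Rcan2. Ppp3r2, a testis form of the regulatory subunit, was not analysed here.

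The immunophilins that carry the drugs to calcineurin lay near or below the typical gene. Of 5 genes, 1 had a log2 ratio above 0 and 4 below, where 51.5% of all genes were above 0. None passed 2-fold, where 13.4% of all genes were higher and 5.35% lower, and the median was -0.090 (0.33 with equal totals). Ppia, which encodes cyclophilin A, the partner of cyclosporine and voclosporin, had 30364 control reads and 44714 CKO reads, a fold of 0.982 that is uncertain because Ppia has many processed pseudogenes. Ppif, the mitochondrial cyclophilin, had 1908 and 1816 reads and was the lowest at 0.635-fold (interval 0.595 to 0.677). Fkbp1b, a relative of the tacrolimus partner Fkbp1a, had 63 and 108 reads and the highest ratio, 1.14-fold with an interval of 0.830 to 1.59. Fkbp1a itself had 3378 control reads and 4762 CKO reads. It was at 0.940-fold (interval 0.899 to 0.982), and its log2 ratio is the median of the list.

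Upstream of calcineurin, 2 of 13 genes of calmodulin and calcium entry were at least 2-fold higher and none was 2-fold lower, where 13.4% and 5.35% of all genes were, and the median log2 ratio was 0.20. Itpr3, a calcium release channel of the endoplasmic reticulum, had 265 control reads and 1341 CKO reads, a fold of 3.37 with an interval of 2.95 to 3.86. Orai2, a channel of store-operated calcium entry, had 90 and 288 reads and was 2.13-fold higher (1.68 to 2.73). Itpr1, the most abundant channel of its family here by reads, had 14209 and 15342 reads and the lowest ratio of the list, 0.720-fold, which turned to a log2 ratio of 0.11 with the values as deposited. Calm2 and Calm3 encode the same protein, calmodulin, and did not go one way. Calm2 had 5062 control reads and 9698 CKO reads and was at 1.28-fold. Calm3 had 9742 and 11920 reads and was at 0.816-fold, which became a log2 ratio of 0.13 with equal totals.

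The kinases that return phosphates to NFAT had a median log2 ratio of -0.031 (0.39 with equal totals), with 4 of 10 above 0. Csnk1e, casein kinase 1 epsilon, had 389 control reads and 1365 CKO reads and was the only one past 2-fold, at 2.34-fold (interval 2.09 to 2.63), so that 1 of 10 passed where 13.4% of all genes did. Dyrk2 was the lowest at 0.730-fold, and Csnk1a1, the most abundant by reads, was at 0.996-fold. Among 5 other inhibitors and anchors of calcineurin the median was -0.23 (0.19 with equal totals), from Fkbp8, a mitochondrial immunophilin known to inhibit calcineurin, at 0.673-fold to Akap5, an anchoring protein with 16 and 34 reads, at 1.42-fold. Of 12 other substrates none passed 2-fold under this scaling, where 13.4% of all genes were higher and 5.35% lower. Of these 12, 8 were above 0, where 51.5% of all genes were, with a median of 0.20 (0.62 with equal totals). Mef2c, a transcription factor of muscle and immune cells, was the highest at 1.68-fold, past 2-fold with equal totals (log2 1.17), and Bad, a death-promoting protein, the lowest at 0.852-fold.

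Genes known as NFAT targets are given next, and many of them also answer to other signals of stress and inflammation. Of 17 targets of activated lymphocytes, 9 were analysed and 8 passed the filter. Of these, 7 were at least 2-fold higher, where 13.4% of all genes were, but only 4 of the 8 had 10 or more reads in the control, so that the others could pass only by being higher in the CKO library. The median log2 ratio was 2.54, or 1.64 with the genes of 3 or fewer control reads set to the lower end of their intervals, 1.35 with a pseudocount of 10 and 1.23 with the values as deposited. Egr2, a transcription factor of T cell restraint, was the highest, with 13 control reads and 397 CKO reads, 20.4-fold with an interval of 11.8 to 38.6, and its log2 ratio of 4.25 was 3.22 with the values as deposited. Icos, a T cell costimulator, had 23 and 55 reads, the most of the list in the control and the lowest ratio past the filter. Il2, the best known NFAT target, was not analysed here.

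Of 13 targets known from other cells, 12 passed the filter, 11 of them with 10 or more control reads. Of the 12, 7 were at least 2-fold higher, against 13.4% of all genes, and 2 were below 0. The median was 1.56, or 1.34 with no filter and 2.01 with at least 50 reads. Atf3, a stress-induced transcription factor, was the highest with 53 control reads and 946 CKO reads, 11.9-fold with an interval that starts at 9.02. Acp5, an osteoclast phosphatase induced through Nfatc1, had 1462 and 1580 reads and was the lowest at 0.720-fold. Vegfa, a vessel growth factor and the most abundant of the list, had 6385 and 7405 reads, a fold of 0.773 that became a log2 ratio of 0.048 with equal totals.

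Markers of several cell types were higher in the CKO library together with Rcan1, Rcan2 and the scarcer NFAT genes. In whole kidney a change in the number of cells of a type and a change in RNA per cell cannot be told apart. At least 2-fold higher values, which 13.4% of all genes had, were found for 11 of 12 macrophage markers, with 4135 reads in sum in the control and 19042 scaled reads in the CKO library. The exception, Csf1r, was the most abundant in the control, with 2244 and 4803 reads, and was 1.43-fold higher, past 2-fold only with the values as deposited (log2 1.09). Lyz2 was the most abundant in the CKO library, with 518 and 9836 reads. Of 11 T cell markers analysed out of 12 listed, 8 were at least 2-fold higher by the log2 ratio with its pseudocount, and 1 more stood at exactly 2-fold without it, beside the 13.4% of all genes, but only 7 of the 11 had 10 or more control reads, so that the others could pass the filter only by being higher in the CKO library. The count at least 2-fold higher was 11 with equal totals, 7 with a pseudocount of 10 and 9 with the values as deposited. The shares of all genes were then 21.9%, 10.4% and 17.9%. The sums of the T cell markers were only 143 reads and 454 scaled reads, led by Lck with 28 and 160 reads. Cd5 was at 8.44-fold, from 3 control reads with an interval of 2.68 to 42.8. It had the highest ratio in this processing, but its log2 ratio of 2.72 became 1.44 with a pseudocount of 10 and 1.23 with the values as deposited, below Lck at 1.62 and 1.74. The single B cell marker analysed out of 6, Cd79b, had 23 and 40 reads.

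Of 8 markers of mural cells and fibroblasts 5 were at least 2-fold higher, again beside 13.4% of all genes, and their sums were 7346 reads and 16965 scaled reads. Col1a1, a collagen chain, was the highest with 288 and 2711 reads, Cspg4 the lowest at 1.08-fold, and Dcn, with 1291 and 6232, the most abundant in the CKO library. The 8 endothelial markers summed to 10802 reads and 10079 scaled reads, which turned to 13476 and so above the control with equal totals. Their median log2 ratio was 0.080 (0.50 with equal totals), from Kdr at 0.630-fold, the most abundant in the control, to Vwf at 1.52-fold.

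The tubule markers went the other way in part. The 12 proximal tubule markers summed to 554337 reads in the control and 321627 scaled reads in the CKO library, with 11 below 0, 2 at least 2-fold lower, where 5.35% of all genes were, and a median log2 ratio of -0.56, which rose to -0.14 if totals were made equal and turned to 0.030 as deposited. Slc22a6, the organic anion transporter, was the lowest at 0.324-fold, Slc34a1 the most abundant at 0.445-fold, which did not reach 2-fold with equal totals (log2 -0.75) or as deposited (-0.58), and Slc5a12, a lactate transporter, the highest at 1.33-fold. The 12 markers of other nephron segments summed to 152965 reads and 186335 scaled reads, with a median of -0.029 (0.39 with equal totals), from Pvalb at 0.445-fold to Cldn16 at 1.78-fold, and Umod as the most abundant at 1.38-fold. The lowest value of any marker was the 3 control reads of Cd5, where the floor allows no value under 1. The part of any of these cell types in the values of the 10 calcineurin and NFAT genes was not tested.

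**Figure D5:**
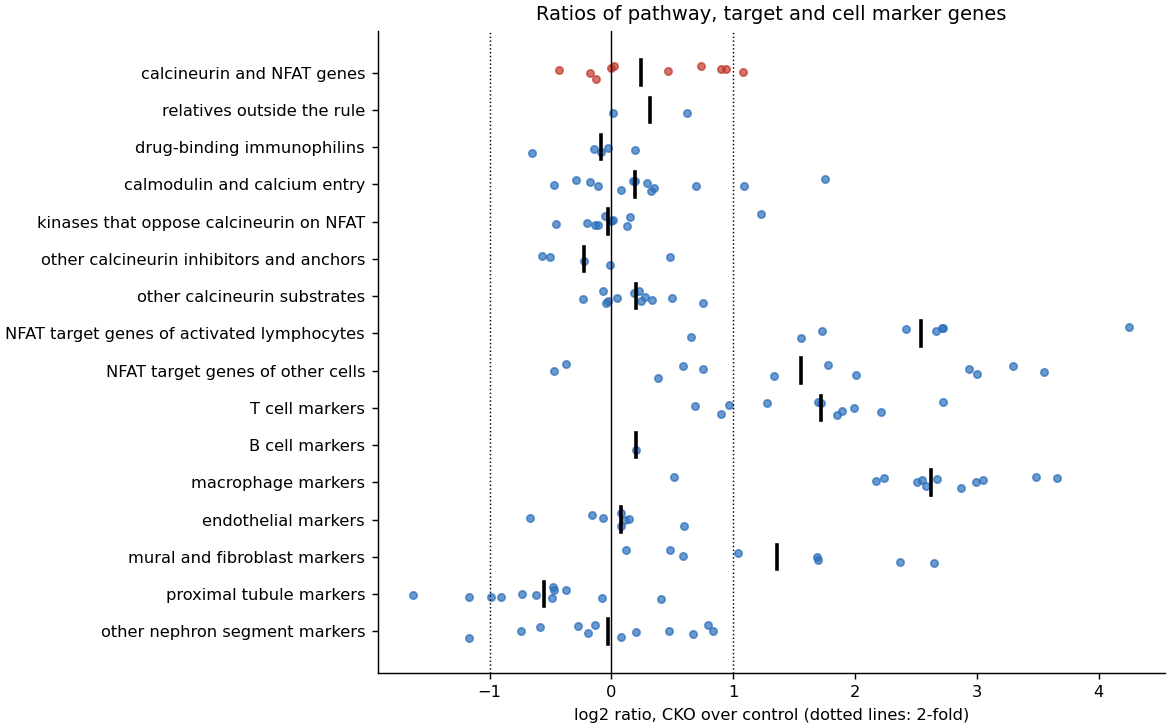
log2 ratio of CKO over control for each gene past the filter (points, spread vertically for clarity only) in the 10 calcineurin and NFAT genes (red) and 15 other lists (blue), with a black bar at the median of each list and dotted lines at 2-fold. The median of the 10 genes is 0.24, those of the NFAT target lists are 2.54, where 4 of 8 genes had under 10 control reads, and 1.56, that of macrophage markers is 2.63 and that of proximal tubule markers is -0.56. With the values as deposited the target medians are 1.23 and 1.45, and that of the proximal tubule turns to 0.030.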

How the data were processed

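Poly(A) RNA libraries were made with a stranded kit, and per the submitters' processing notes STAR 2.7.3a, HTSeq, DESeq2, edgeR, Cufflinks 2.2.1 and FastQC were used with build mm10 (GRCm38). The authors deposited a score, whole numbers named as normalized counts, which their methods describe as HTSeq read counts normalized with DESeq2. As deposited, the score values were not scaled to each other and start at 35 (control) and 51 (CKO). Here 34 and 50 were subtracted and the results were treated as reads, which is an inference from this floor. All counting intervals and levels per kilobase rest on this inference. CKO reads were scaled by the median gene ratio (0.667), and log2((CKO + 1)/(control + 1)) was taken where 1 library had at least 10 scaled reads. The threshold was 2-fold. Folds carry no pseudocount. No test between groups was possible with 1 library each.

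Members and lists were chosen with earlier results of these data known. Named genes were all 10 members, the target, any gene of the pathway lists, and the highest, lowest and most abundant gene of target and marker lists, or, up to 6, those past 2-fold. Some genes under this rule are not reported here. Lengths came from GENCODE M21, positions and windows from RefSeq GRCm38.p6. Alternatives covered pseudocount, filter, threshold, scaling and floor. The steps were tested on simulated Poisson reads with a known floor and factor. That test does not show whether the floor and factor chosen suit these data. All steps ran in Python 3.11.15 with scipy 1.17.1, pandas 2.3.3 and numpy 2.4.6.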

Additional observations from a re-analysis of the deposited data

How the results depend on the processing

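Rcan1, Rcan2, Nfatc1, Nfatc2 and Nfatc4 had log2 ratios above 0 under all alternatives run, over ranges of 0.71 to 1.31, 1.06 to 1.59, 0.44 to 0.998, 0.89 to 1.37 and 0.82 to 1.31. The CKO scaling factor ran from 0.658 to 1 over these alternatives, with 0.667 in the main processing. No alternative thus lowered the CKO values by much. Ratios this far above 0 could not turn, so their sign here is no check of direction. The pseudocounts, filters, floor at the column minimum, equal upper quartiles and median set to 0 left 1 of the 10 genes past 2-fold higher and 0 past 2-fold lower. At least 50 reads left 617 genes 2-fold lower in place of 934, with fewer genes tested. At 1.5-fold 3801 genes were higher and 2423 lower, with 4 of the 10 higher, and at 4-fold 749 and 166, with 0 of the 10.

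With equal totals 3870 genes were higher and 437 lower, 4 of the 10 were higher, and their median log2 ratio was 0.66. Log2 ratios turned positive for Ppp3ca (0.29), Ppp3cb (0.25), Nfatc3 (0.42), Zc3h12b (0.16), Csnk1a1 (0.41), Ppia (0.39), Calm3 (0.13), Bad (0.19) and Vegfa (0.048), and so did the medians of the immunophilins (0.33), kinases (0.39), inhibitors and anchors (0.19) and other nephron segments (0.39). With equal upper quartiles Ppia (0.0043), Nfatc3 (0.027), Csnk1a1 (0.025) and the medians of the kinases (0.00025) and other nephron segments (0.0014) turned positive. Rcan3 turned to -0.0079 with the median set to 0 and to -0.0067 with the column minimum. With the values as deposited 3574 genes were higher and 131 lower, 4 of the 10 were higher, and their median was 0.80. There Ppp3ca (0.46), Ppp3cb (0.42), Ppp3cc (0.17), Nfatc3 (0.58), Zc3h12b (0.42), Csnk1a1 (0.58), Ppia (0.56), Itpr1 (0.11), Calm3 (0.29), Dyrk2 (0.14), Fkbp8 (0.016), Bad (0.36), Acp5 (0.12) and Vegfa (0.22) turned positive, as did the medians of the immunophilins (0.50), kinases (0.55), inhibitors and anchors (0.36), other nephron segments (0.56) and the proximal tubule markers (0.030). Of the other genes named, Nfat5 (1.04), Mef2c (1.17), Icos (1.06), Vwf (1.01) and Cldn16 (1.25) passed 2-fold with equal totals, and Nfat5 (1.20), Mef2c (1.26), Csf1r (1.09), Umod (1.05) and Cldn16 (1.34) as deposited, while Slc34a1 (-0.75 and -0.58) and Pvalb (-0.75 and -0.53) did not reach it. With equal totals the turns follow from the factor between the libraries, and with the values as deposited the parts of factor and floor were not tested. Of the other values of single genes, levels, shares and lists, 537 lay within their counting interval and 112 left it with no change of sign, 38 of them with equal totals, 44 with the values as deposited and 20 by exon length.

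Nfatc4 with 70 control reads and Nfatc2 with 127 had the widest intervals of the 10 genes, and target and T cell genes with fewer reads had wider ones. With 1 library per group the spread between mice is unknown. No paired analysis was possible with a single library on each side.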
